A study of Mus musculus with 11 samples.

Results

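Krt79 and the simple epithelial keratins Krt8, Krt18, Krt20 and Krt23 were followed in mouse liver after forced activation of Notch1, Notch2 or both. These 5 genes, of the 22911 that the array names, were taken by symbol, each with the probe or probes that carry its RefSeq accession. Each of the 5 had 1 probe with 1 spot per array, so every value of a gene rests on that probe. Probe sequences were not used here, and whether a probe also binds the RNA of related keratins was not tested. Krt79 was selected on its log2 levels in the 4 groups of these same arrays, so they are given as a description without a test. The others were not chosen for a pattern here.

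The mice were male C57Bl6/J, 8 weeks old at injection, and all of them received adeno-associated virus of serotype 8 (AAV8), a vector that reaches hepatocytes well, at 6e+11 viral genomes in all. The GFP group (3 arrays) received the green fluorescent protein vector alone. The NICD1 group (3 arrays) received 3e+11 viral genomes that carry the intracellular domain of Notch1 (NICD1), and the NICD2 group (3 arrays) received 3e+11 that carry the intracellular domain of Notch2 (NICD2), each topped up with 3e+11 of the GFP vector. The NICD1&2 group (2 arrays) was given both NICD vectors at 3e+11 and none that carries GFP, so its NICD2 dose equalled that of the NICD2 group. A CMV promoter, which is not restricted to hepatocytes, drove each vector. Liver was taken 5 days later and its RNA was profiled on 1-colour Agilent arrays. Levels are log2 of the background-subtracted signal less the 75th percentile of the array, so a level of 0 equals that percentile and a difference of 1 is a doubling. Nothing in the labels ties an array to a pool or a single animal, so the spread is that between arrays. Whole liver was measured, and fewer cells of a type cannot be told apart from less RNA per cell.

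Keratins are the intermediate filament proteins of epithelia, and a filament needs a type I and a type II partner. Krt8 (type II) and Krt18 (type I) make up the filaments of hepatocytes, whereas bile duct cells add Krt7 and Krt19. Krt20 is best known from the gut and the urothelium, and Krt23 is a type I keratin that has been described as inducible in stressed liver. Krt79 is a type II keratin that was described in the duct of the hair follicle, an epidermal structure, and in the liver as a target of the nuclear receptor PPAR-alpha. Active Notch works through its intracellular domain, which binds the DNA-binding protein RBPJ at the core letters TGGGAA and switches on genes such as Hes1 and Nrarp.

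Between 57.0% and 62.0% of the 59305 spots that were not controls lay well above background on an array, and 0 were saturated. All 10 hepatocyte markers, among them Alb and Ttr, were well above background on every array, and their summed level ran from 12.13 to 12.57 over the 11 arrays. With NICD2 against GFP they ran from Fgb (-0.08) and Alb (-0.07) to Tat (0.46) and Pck1 (0.46), with 0 called by limma and 1 at an unadjusted p under 0.05, beside 0.0782% and 7.73% of all genes. The arrays lay on 2 slides, and each slide held all 4 groups. The vector check was weak. The Notch1 probe averaged 0.55 ± 0.22 with GFP, 0.77 ± 0.20 with NICD1, 0.18 ± 0.52 with NICD2 (SD, n = 3 each) and 0.71 ± 0.55 with NICD1&2 (n = 2), and the Notch2 probe stayed between 1.66 and 2.10 over all arrays. Whether these probes lie inside the parts carried by the vectors is not known here, so they neither bear out nor contradict the labels.

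The promoters of Krt79, Krt8 and Krt18 are shown because these 3 of the 5 keratins lie in 1 keratin cluster on chromosome 15, with Krt78 between Krt79 and Krt8. Each sequence runs 5′ to 3′ on the strand of the gene, from 250 bases before to 50 bases after the RefSeq start (GRCm38.p6), and capitals mark TGGGAA or its reverse complement TTCCCA.
Krt79, chr15:101940275-101940574, minus strand: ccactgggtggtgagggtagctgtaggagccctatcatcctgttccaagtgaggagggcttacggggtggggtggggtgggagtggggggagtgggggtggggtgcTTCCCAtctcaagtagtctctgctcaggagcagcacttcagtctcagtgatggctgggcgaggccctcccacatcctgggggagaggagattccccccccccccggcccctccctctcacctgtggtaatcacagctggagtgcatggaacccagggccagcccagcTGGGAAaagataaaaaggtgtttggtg
Krt8, chr15:102004293-102004592, minus strand: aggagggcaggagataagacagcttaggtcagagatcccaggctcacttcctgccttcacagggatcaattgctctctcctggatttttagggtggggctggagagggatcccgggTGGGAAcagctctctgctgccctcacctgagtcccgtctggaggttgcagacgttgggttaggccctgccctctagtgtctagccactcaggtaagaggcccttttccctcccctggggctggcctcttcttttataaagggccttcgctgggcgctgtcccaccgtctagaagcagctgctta
Krt18, chr15:102027966-102028265, plus strand: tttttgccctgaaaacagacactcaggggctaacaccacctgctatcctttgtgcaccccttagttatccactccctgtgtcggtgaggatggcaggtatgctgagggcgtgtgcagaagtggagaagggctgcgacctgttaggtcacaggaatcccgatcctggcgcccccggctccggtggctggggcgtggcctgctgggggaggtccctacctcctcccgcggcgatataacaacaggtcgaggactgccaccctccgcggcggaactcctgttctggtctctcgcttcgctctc
The Krt79 promoter held 2 matches, which began 144 bases before the start and at base 24 after it. The Krt8 promoter held 1 match, 134 bases before the start. The promoters of Krt18, Krt20 and Krt23 held 0 matches. The search covered both strands. Of 32851 RefSeq promoters of the same length, 25.6% held at least 1 match and 3.79% held at least 2. A match is a description of letters, and none of these windows was measured for binding.

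Krt79 was low in GFP and NICD1 livers and far higher in every liver that received NICD2. Its level was -3.21, -2.82 and -3.25 on the GFP arrays and -2.79, -2.28 and -2.31 on the NICD1 arrays. It was 0.80, 0.61 and 0.97 on the NICD2 arrays and 0.23 and 0.55 on the NICD1&2 arrays. The probe was well above background on all 11 arrays. Before scaling, the processed signal was 19.9 to 24.7 with GFP, 28.6 to 37.7 with NICD1, 271.1 to 343.0 with NICD2 and 175.2 to 205.4 with NICD1&2, while the dimmest probes well above background read 5.99 to 8.37. The transcript was therefore measurable in control liver too.

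**Figure D1:**
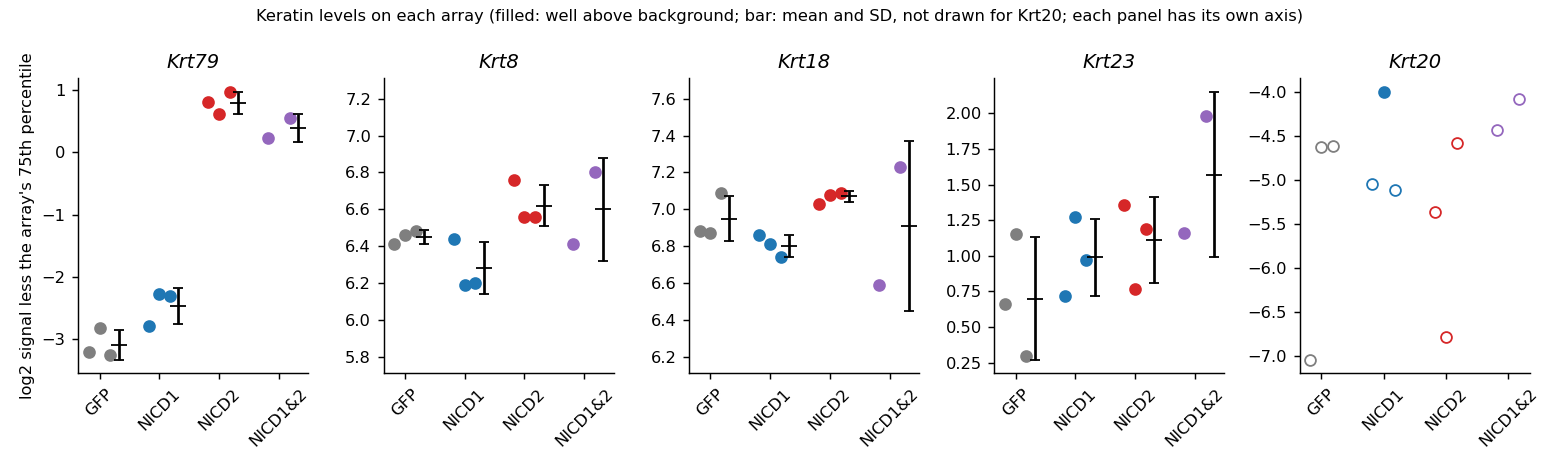
Log2 level of each keratin (y axis, relative to the 75th percentile of the array; each panel has its own axis) on the GFP, NICD1, NICD2 and NICD1&2 arrays; filled points are well above background, and bars give the mean and SD except for Krt20. The Krt79 points with NICD2 and NICD1&2 lie between 0.23 and 0.97, above all GFP and NICD1 points, whereas the groups of Krt8, Krt18 and Krt23 lie close together or overlap.

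In rising order, the mean Krt79 level was -3.09 ± 0.24 with GFP, -2.46 ± 0.29 with NICD1 (SD, n = 3 each), 0.39 ± 0.23 with NICD1&2 (n = 2) and 0.79 ± 0.18 with NICD2 (n = 3). The arrays of the 4 groups did not overlap. Groups set apart in the same direction as Krt79 were found against GFP for 7.4% of genes with NICD1, 9.57% with NICD2 and 26.1% with NICD1&2, against NICD1 for 6.75% with NICD2 and 24.3% with NICD1&2, and against NICD2 for 7.14% with NICD1&2; since Krt79 was selected on these levels, nothing is read from that. The wide step lay between NICD1 and NICD1&2, whose nearest arrays were 2.51 apart. The outer neighbours in the order were much closer: the highest GFP array and the lowest NICD1 array were 0.03 apart, and the highest NICD1&2 array and the lowest NICD2 array were 0.06 apart.

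NICD2 livers exceeded GFP livers by 3.89 on the log2 scale (SE 0.19), a 14.8-fold difference. NICD1&2 livers exceeded GFP livers by 3.48 (SE 0.21), 11.1-fold, and NICD1 livers by 0.63 (SE 0.19), 1.55-fold. The comparisons with GFP share the GFP arrays. Set against NICD1 directly, Krt79 was higher by 3.26 with NICD2 (SE 0.19; 9.56-fold) and by 2.85 with NICD1&2 (SE 0.21; 7.21-fold). With NICD1&2 it lay below NICD2 alone, by -0.41 (SE 0.21), at an equal dose of the NICD2 vector. Within slide 1 and slide 2, NICD2 exceeded GFP by 3.72 and 4.22, and NICD1 exceeded GFP by 0.22 and 0.95. The size depended on the processing: with normexp background correction, an offset of 50 and quantile normalization together, the difference between NICD2 and GFP was 2.28, and that between NICD1 and GFP was 0.24.

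Krt8 and Krt18, the filament pair of the hepatocyte, were bright on all arrays, and their group means differed by at most 0.35. Krt8 read 6.41, 6.46 and 6.48 with GFP, 6.44, 6.19 and 6.20 with NICD1, 6.76, 6.56 and 6.56 with NICD2, and 6.41 and 6.80 with NICD1&2. All 3 NICD2 arrays lay above all GFP and all NICD1 arrays, and the NICD1&2 arrays spanned the range from GFP to NICD2. Krt18 read 6.88, 6.87 and 7.09 with GFP, 6.86, 6.81 and 6.74 with NICD1, 7.03, 7.08 and 7.09 with NICD2, and 6.59 and 7.23 with NICD1&2. Its NICD1 arrays lay just below those of GFP and NICD2, and its NICD1&2 arrays held both the lowest and the highest value of all. Against GFP, 9.57% of genes were set apart upward with NICD2, as Krt8 was, and 6.72% downward with NICD1, as Krt18 was.

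Neither gene passed the test of limma, with p adjusted over all probes, in any of the 6 comparisons. Krt8 differed from GFP by -0.17 with NICD1 (SE 0.13, adjusted p = 0.914), by 0.17 with NICD2 (SE 0.13, adjusted p = 0.89) and by 0.15 with NICD1&2 (SE 0.14, adjusted p = 0.592); the last turned to -0.03 with quantile normalization and -0.05 with normexp. For Krt18 these differences were -0.14 (SE 0.15, adjusted p = 0.928), 0.12 (SE 0.15, adjusted p = 0.957) and -0.04 (SE 0.17, adjusted p = 0.925). The last ran from -0.36 to 0.29 with each array left out in turn, and it was -0.29 within slide 1 and 0.15 within slide 2. The 95% intervals of the fit rest on the spread between arrays, which may be technical, under the main scaling. For NICD2 against GFP they ran from 0.92-fold to 1.38-fold for Krt8 and from 0.85-fold to 1.38-fold for Krt18.

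The widest gap for this pair was between the NICD2 and NICD1 groups. Krt8 was higher with NICD2 by 0.35 (SE 0.13; 95% interval 0.06 to 0.64) on all 3 of its arrays, at an unadjusted p of 0.0233 and an adjusted p of 1 in the limma fit. Krt18 was higher by 0.27 (SE 0.15; interval -0.08 to 0.61; adjusted p = 1). Groups that do not overlap in this direction were common, at 6.75% of the 16633 genes tested. Krt8 was also higher with NICD1&2 than with NICD1, by 0.33 (SE 0.14, unadjusted p = 0.0469, adjusted p = 0.397), with overlapping arrays. This difference rested on slide 2, at -0.03 within slide 1 and 0.61 within slide 2, and it ran from 0.13 to 0.52 with each array left out in turn.

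Krt23 was dimmer and more variable than the pair. It read 0.66, 1.15 and 0.30 with GFP, 0.72, 1.27 and 0.97 with NICD1, 1.36, 0.77 and 1.19 with NICD2, and 1.16 and 1.98 with NICD1&2. The means rose from 0.70 ± 0.43 with GFP through 0.99 ± 0.27 and 1.11 ± 0.30 (SD, n = 3 each) to 1.57 ± 0.58 (n = 2), and neighbouring groups in this order lay within their spread. Against GFP the difference was 0.28 with NICD1 (SE 0.29, adjusted p = 0.927) and 0.40 with NICD2 (SE 0.29, adjusted p = 0.883). Single arrays and the slide moved these values: with each array left out in turn they ran from 0.08 to 0.50 and from 0.20 to 0.63, lowest without GFP 3 and highest without GFP 2 in both cases, and with NICD1 the difference was -0.19 within slide 1 and 0.82 within slide 2.

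With NICD1&2, Krt23 exceeded GFP by 0.87 (SE 0.32; 1.82-fold; 95% interval 1.1-fold to 3.02-fold), at an unadjusted p of 0.0243 and an adjusted p of 0.282 in the limma fit. This meets the looser definition of an altered gene that the study used, an unadjusted P under 0.15 with a fold change over 1.8, as did 4.08% of genes in that direction. The nearest arrays of these groups were 0.01 apart, and 26.1% of genes were set apart in that way. It rested largely on 1 array: without NICD1&2 2 it was 0.46, and it was 0.26 within slide 1 and 1.68 within slide 2.

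Krt20 lay at the background. Its probe was well above background on 1 of the 11 arrays, NICD1 2, at a level of -4.00, and its processed signals ran from 1.41 to 10.58. No difference between groups can be given for it.

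**Figure D2:**
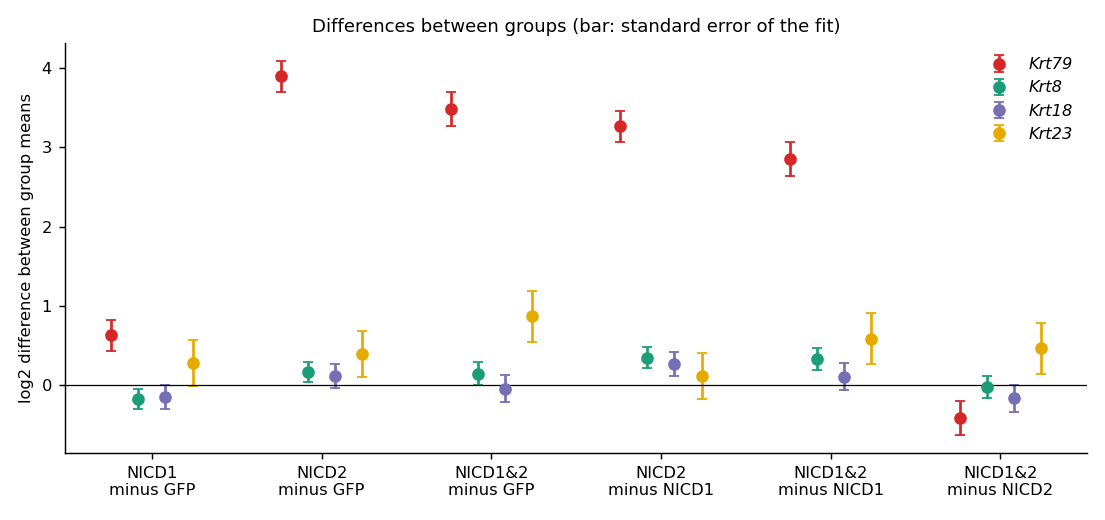
Log2 difference between group means (y axis) of Krt79, Krt8, Krt18 and Krt23 in the 6 comparisons (x axis), with the standard error of the fit as bars. Krt79 stands between 2.85 and 3.89 in the comparisons that set a group with NICD2 against one without it, and the other keratins stay between -0.17 and 0.87.

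Over the 6 comparisons, limma called 0 of the 3 tested genes Krt8, Krt18 and Krt23, and 3 of these 18 tests had an unadjusted p under 0.05. Calls were rare in general. Of 16633 genes, 0.012% were called with NICD1, 0.0782% with NICD2 and 0.132% with NICD1&2 against GFP, 0.00601% with NICD2 and 0.012% with NICD1&2 against NICD1, and 0% with NICD1&2 against NICD2, so 0 calls among 3 genes is near the background. In the same order, an unadjusted p under 0.05 was found for 5.86%, 7.73%, 16.8%, 4.25%, 14.1% and 8.59% of genes.

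Krt8 and Krt18 were correlated over the arrays. Pearson's r was 0.75 (permutation p = 0.00791) and Spearman's rho was 0.87 (permutation p = 0.00095) over the 11 arrays, two-sided, in the only such pair tested. The permutations moved arrays across groups, so these p-values do not separate differences between groups from the spread within them. Without the arrays farthest from the median of Krt8, NICD1&2 2 and NICD2 1, r was 0.65 (n = 9, permutation p = 0.0641), so Pearson's relation rests in part on these arrays, while rho was again 0.87 (permutation p = 0.00465). Within groups the relation rested on the NICD1&2 arrays: r of the residuals from the group means was 0.73 over all arrays and 0.24 over the 9 arrays without that group, a choice made after seeing the data. On the 6 arrays of slide 1 r was 0.68 (permutation p = 0.152). All genes of an array share its scaling, and 377 of 16632 other genes, or 2.3%, tracked Krt8 more closely than Krt18 did. With normexp and quantile normalization, r fell to 0.57 (permutation p = 0.0677).

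**Figure D3:**
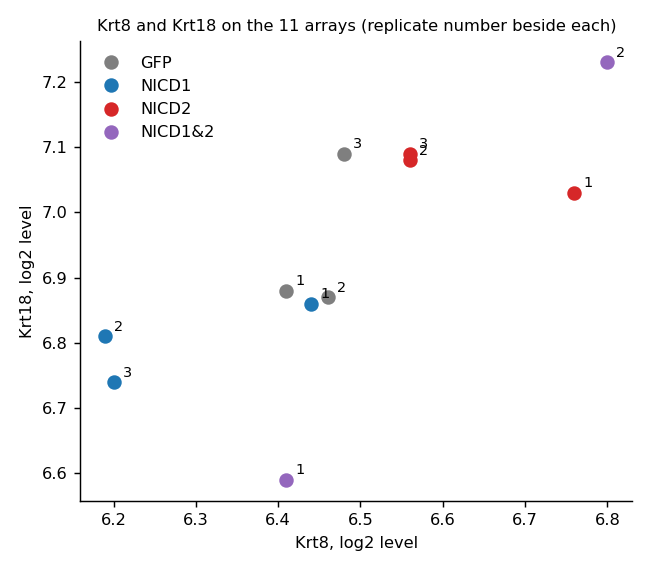
Log2 level of Krt8 (x axis) and Krt18 (y axis) on each of the 11 arrays, coloured by group, with the replicate number beside each point. NICD1 2 and NICD1 3 sit at the lower left, NICD1 1 lies among the GFP arrays, the NICD2 arrays lie to the upper right, and the NICD1&2 arrays lie at 6.59 and 7.23 on the Krt18 axis, the lowest and the highest.

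No other keratin passed the test. Of 49 other keratins on the array, 17 were well above background on no array and 27 could be tested. The limma fit called 0 of the 27 in each of the 6 comparisons, beside 0% to 0.132% of all genes. In a comparison 1 to 4 of the 27 had an unadjusted p under 0.05, beside 4.25% to 16.8% of all genes. Their median difference from GFP was 0.19 with NICD1, 0.16 with NICD2 and 0.40 with NICD1&2, beside medians of 0.00, 0.02 and 0.12 over all genes. With normexp the medians of the keratins were 0.02, 0.03 and 0.04. The all-gene median with NICD1&2 was 0.02 under quantile normalization, so differences of that group against GFP are to be read relative to this shift.

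At the ends of the family with NICD2 against GFP stood Krt39, Krt4, Krt14 and Krt5, all dim. Krt4 differed by 0.69 (SE 0.58, on 8 of 11 arrays well above background) and Krt14, a basal keratin of the epidermis, by -0.61 (SE 0.41, on 7 arrays). Its partner Krt5 was well above background on 1 GFP and 0 NICD2 arrays and Krt39 on 0 GFP and 1 NICD2 arrays, so no fold is given for either. None of these passed the test. By the study's definition 4 keratins, Krt4, Krt13, Krt24 and Krt39 (on 1 array of each NICD group well above background), were higher with NICD1 and with NICD1&2 against GFP, and 0 with NICD2, where 1.31%, 4.08% and 1.14% of all genes were. Neither bile duct keratin passed the test: Krt7 averaged -3.09 ± 0.47 with GFP and -2.94 ± 0.44 with NICD2, and Krt19 averaged -2.17 ± 0.21 and -2.08 ± 0.42 (SD, n = 3 each).

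**Figure D4:**
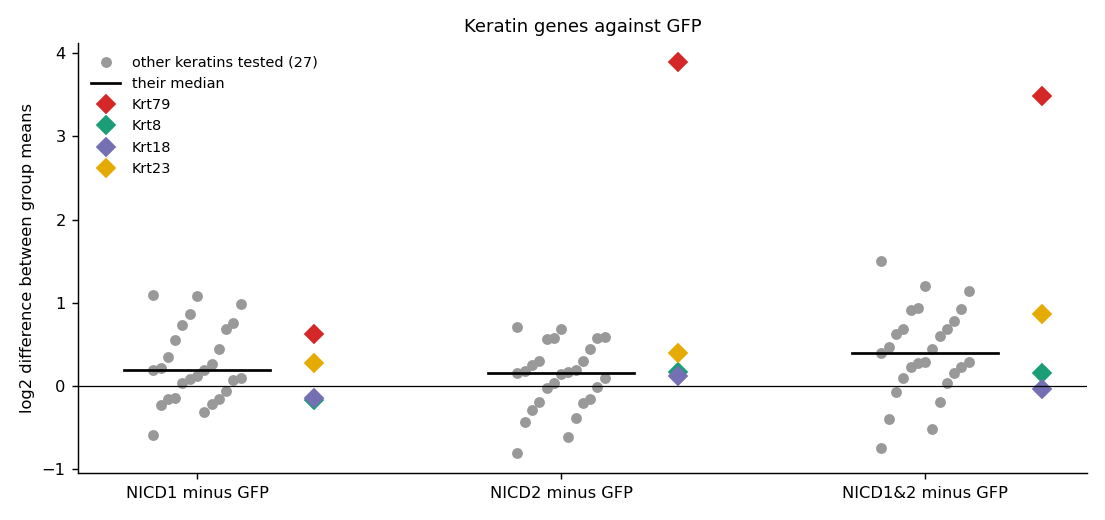
Log2 difference from GFP (y axis) of the 27 other tested keratins (grey, with their median as a black line) and of the member genes (diamonds) with NICD1, NICD2 and NICD1&2. With NICD2 the other keratins lie between -0.81 and 0.71, measured values that for dim genes include arrays at background, and Krt79 lies at 3.89.

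The values of the genes around Krt79 on chromosome 15 are given beside its own as a description. By RefSeq order it lies between Krt4 and Krt78, followed by Krt8 and Krt18. With NICD2 against GFP, Krt4 differed by 0.69 (well above background on 8 arrays) and Krt78 by 0.45 (on 5 arrays). With NICD1 against GFP, where Krt79 differed by 0.63, Krt4 differed by 0.98, and with NICD1&2 against NICD2, where Krt79 differed by -0.41, Krt78 differed by 0.49. These values of Krt4 and Krt78 include arrays at background. Krt78 was well above it on 2 NICD2 arrays and 1 NICD1&2 array. Krt76, Krt77 and Krt1, on the far side of Krt4, were well above background on 0 arrays. Of the next 4 genes beyond Krt18, all well above background on 11 arrays, Eif4b, a translation initiation factor, differed by 0.08 with NICD2 against GFP, Tns2, a focal adhesion protein, by -0.36, Spryd3 by 0.00, and Igfbp6, which binds insulin-like growth factor 2, by 0.77.

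Genes with a pattern like that of Krt79 were ranked by Pearson's r with its level over the 11 arrays, as a description; the points share 4 groups and the scaling of each array. The median r over 16632 genes was 0.15, and 41 genes exceeded 0.9. Reg1, a secreted protein of the exocrine pancreas, was highest at 0.96, followed by D11Wsu47e (0.95), the laminin chain Lama2 (0.95), Vps9d1 (0.95), Rusc2 (0.94), the cell-surface proteoglycan Sdc2 (0.94), the receptor for turnover of endoplasmic reticulum Retreg1 (0.94), the matrix protease Mmp7 (0.94), Ankrd2 (0.93) and Agpat1 (0.93), an enzyme of phosphatidic acid synthesis. Reg1 and Mmp7 were at background on most arrays, so their r and rank rest mostly on values there. Ankrd2, an ankyrin repeat protein known from muscle, went from -2.73 ± 0.12 with GFP and -2.35 ± 0.43 with NICD1 to -0.73 ± 0.34 with NICD2 (SD, n = 3 each) and -1.26 ± 0.52 with NICD1&2 (n = 2).

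Reg1 was well above background on the 3 NICD2 arrays and on no other, with NICD2 at least 2.02-fold above GFP. Mmp7 was well above background on 2 NICD2 arrays alone. Such lower bounds set the dim group at the lowest signal well above background on each array, or at the own signal of the probe where that was higher. The bounds compare means and take no account of the spread between arrays. The lowest correlations belonged to Traf3ip2 (-0.93), an adaptor of the interleukin 17 receptor, Dusp10 (-0.93), a phosphatase of stress kinases, Cd276 (-0.92), Adh6-ps1 (-0.92) and AW549542 (-0.92). Dusp10 averaged -2.95 ± 0.11 with GFP and -3.69 ± 0.23 with NICD1 (SD, n = 3 each) and was well above background on 0 arrays with NICD2 and NICD1&2, which puts GFP at least 2.91-fold above NICD2. Among the keratins, r with Krt79 was 0.63 for Krt8, 0.59 for Krt23 and 0.35 for Krt18.

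**Figure D5:**
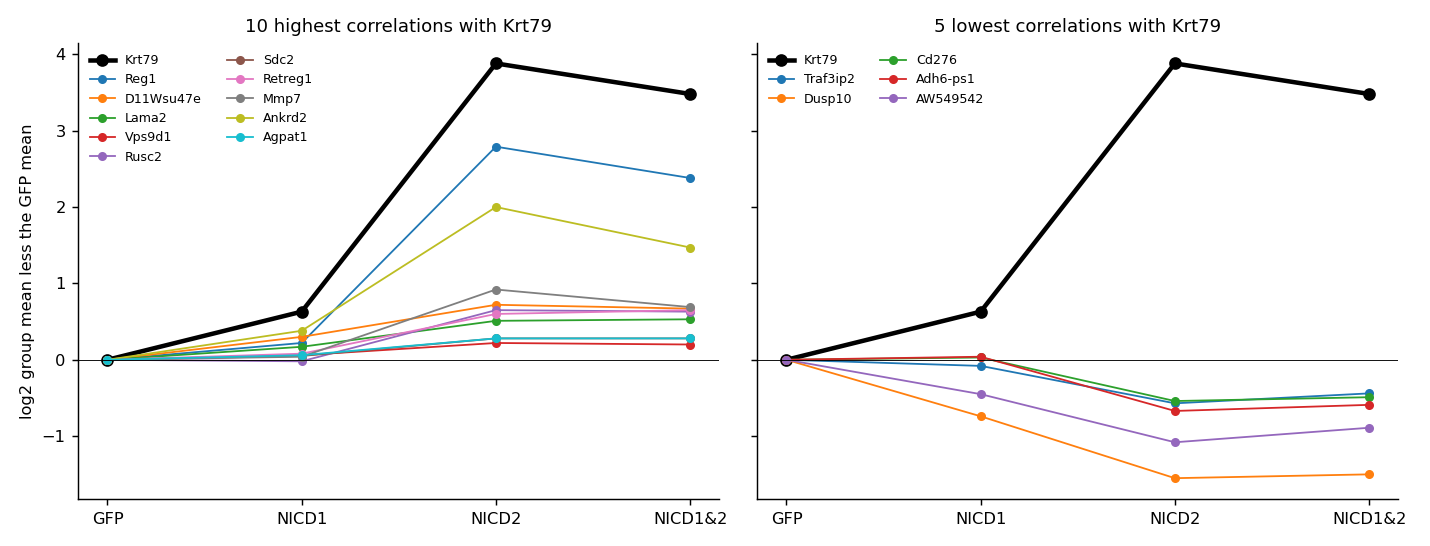
Group mean less the GFP mean (y axis, log2) of Krt79 (black) and of the 10 genes with the highest (left) and the 5 with the lowest (right) correlation with it over the arrays (x axis: group). Reg1, Mmp7 and Dusp10 are drawn at their measured means, which include arrays where they were not well above background; Krt79 itself stands at 3.89 with NICD2.

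Limma called 0 of the 5 tested Notch targets in each of the 6 comparisons. Hes1 and Nrarp, a feedback inhibitor of Notch, had the highest differences from GFP with NICD2. Hes1, a transcriptional repressor, averaged -2.49 ± 0.66 with GFP, -2.52 ± 0.64 with NICD1, -0.85 ± 0.69 with NICD2 (SD, n = 3 each) and -1.13 ± 0.03 with NICD1&2 (n = 2), and its r with Krt79 was 0.85. The difference of Hes1 between NICD2 and GFP was 1.64 (SE 0.45) and did not pass the limma test (adjusted p = 0.421). Nrarp was well above background on 0 GFP, 2 NICD1, 3 NICD2 and 2 NICD1&2 arrays, and NICD2 was at least 4.64-fold above GFP (adjusted p = 0.104). With NICD2 against GFP 3 of the 5 had an unadjusted p under 0.05, as did 7.73% of genes, and with NICD1&2 against GFP all 5 had, as did 16.8% of genes. Sox9, a transcription factor of bile duct cells, differed from GFP by 0.84 with NICD2 (SE 0.28, adjusted p = 0.581) and by 1.16 with NICD1&2 (SE 0.31, adjusted p = 0.198), with an r of 0.77 with Krt79, while its dimmer probe averaged -2.84 with GFP and -2.47 with NICD2. Hey1 differed by 0.29 with NICD2, and Heyl stood lower than GFP throughout, by -0.22 with NICD1, -0.43 with NICD2 (SE 0.24, adjusted p = 0.823) and -0.64 with NICD1&2.

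Markers of other cell types that express keratins were measured beside these results. Of 14 tested genes of keratinocytes and the upper hair follicle, 0 were called in any comparison, with 1 to 3 at an unadjusted p under 0.05 by comparison, as had 4.25% to 16.8% of all genes. Krt1 and Dsg3, which mark epidermis, were well above background on no array, and the summed level of this list was 4.18 to 4.29 with GFP and 4.29 to 4.47 with NICD2. Beside Krt5 and Krt14, its extremes with NICD2 against GFP were Lor (0.42, SE 0.26) and Gata6 (0.42, SE 0.14). Lor, a protein of the cornified envelope of the epidermis, was further from GFP with NICD1 (0.93, SE 0.26, adjusted p = 0.755) and with NICD1&2 (1.54, SE 0.29, adjusted p = 0.115), and it alone of the list met the study's definition there, as did 1.31% and 4.08% of all genes. The 7 tested genes of intestine and urothelium gave 0 calls and at most 1 unadjusted p under 0.05. Their summed level was 5.79 to 5.93 with GFP and 5.34 to 5.89 with NICD2, and Cdh17, Cdx2 and Upk2 were well above background on no array. Its extremes with NICD2 against GFP were dim, with Upk3a, Upk1b, Vil1 and Cdx1 well above background on 1, 1, 0 and 0 NICD2 arrays.

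The summed level of the 12 bile duct markers moved with Spp1 (osteopontin). It was 3.07 to 3.52 with GFP, 4.60 to 5.02 with NICD1, 4.59 to 5.0 with NICD2 and 5.09 to 5.38 with NICD1&2. Without Spp1, a choice made after seeing the data, it was 1.14 to 1.24, 1.22 to 1.39, 1.33 to 1.47 and 1.51 to 1.65 in the same order. The median difference from GFP over the 9 other tested genes was 0.23 with NICD1, 0.17 with NICD2 and 0.63 with NICD1&2, and over all 10 with normexp it was 0.07, 0.05 and 0.12. Of the 10 tested genes, Spp1 alone was called by limma, with NICD2 and with NICD1&2 against GFP, as 0.0782% and 0.132% of all genes were. It was higher by 1.81 with NICD2 (SE 0.20, adjusted p = 0.0276) and by 2.23 with NICD1&2 (SE 0.22, adjusted p = 0.0114) against GFP. With NICD1 it was higher by 1.71 (SE 0.20, adjusted p = 0.0988), which was not called, and NICD2 exceeded NICD1 by 0.10 (SE 0.20, adjusted p = 1). By the study's definition Spp1 alone was higher with NICD1 and with NICD2 against GFP. With NICD1&2 3 of the 10 were, Spp1, Sox9 (1.16) and Cldn4 (1.24, on 4 of 11 arrays well above background). In the same order the shares of all genes were 1.31%, 1.14% and 4.08%. Prom1 and Sctr were well above background on no array. The Spp1 calls held under 12 and 18 of 21 alternatives. The 5 tested mesothelial genes gave 0 calls and 0 with an unadjusted p under 0.05 in any comparison. Their median difference from GFP was 0.78 with NICD1, 0.64 with NICD2 and 0.66 with NICD1&2 (0.08, 0.09 and 0.15 with normexp). The summed level of the list was -1.15 to -0.39 with GFP, -0.21 to 0.06 with NICD1, -0.71 to 0.53 with NICD2 and -0.5 to 0.96 with NICD1&2. With NICD2 against GFP, Gpm6a (0.88, SE 0.40, on 6 arrays) and mesothelin (Msln; 0.87, SE 0.54) stood highest, and Upk3b (0.38, on 9 arrays) and Krt19 (0.09) lowest. By the study's definition Gpm6a and Msln, 2 of the 5, were higher with NICD2, 1 (Msln, by 1.31) with NICD1&2 and 0 with NICD1, beside 1.14%, 4.08% and 1.31% of all genes. The part of these markers in the keratin values was not tested.

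Of 10 exocrine pancreas genes 5 were tested, and Cela3b, Cpa1, Cpb1, Prss2 and Pnlip were well above background on no array. The lipase-related gene Pnliprp1 alone was called, with NICD2 and with NICD1&2 against GFP, as 0.0782% and 0.132% of all genes were. Its r with Krt79 was 0.92. It was well above background on 0 GFP, 2 NICD1, 3 NICD2 and 2 NICD1&2 arrays, at least 5.42-fold higher with NICD2 (adjusted p = 0.00452) and at least 5.35-fold higher with NICD1&2 (adjusted p = 0.00964) than with GFP. With normexp and quantile normalization the fitted differences were 0.66 and 0.63, smaller than these bounds, which hold for the main processing. These calls held under 19 and 17 of 20 alternatives. The other tested enzymes stayed near GFP, from Cela2a (-0.32) to Cel (0.21) with NICD2. The summed level of the list was 5.12 to 5.51 with GFP and 5.09 to 5.37 with NICD2.

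Among genes that work with keratin filaments, none passed the limma test. Of 11 tested desmosome and plakin genes, which anchor the filaments, 0 were called in any comparison, with 3 at an unadjusted p under 0.05 for NICD1&2 against GFP (16.8% of all genes) and fewer elsewhere. Envoplakin (Evpl) stood highest against GFP, by 0.75 with NICD2 (SE 0.29, adjusted p = 0.675), followed by Ppl (0.36), and Pkp2 (-0.12) and Pkp3 (-0.11) lowest. With NICD1&2, Evpl differed from GFP by 1.07 (SE 0.33) and alone of the list met the study's definition, as did 4.08% of all genes. Of 9 tested intermediate filament genes of other classes 0 were called, with at most 1 at an unadjusted p under 0.05, and the nuclear lamin Lmnb1 stood lowest with NICD2 (-0.70, SE 0.15, adjusted p = 0.276), before Lmnb2 (-0.07). Highest were Prph (0.81, SE 0.60, on 10 arrays) and Sync, which was well above background on 0 GFP and 2 NICD2 arrays, at least 1.25-fold higher with NICD2. Of 10 genes of keratin aggregates and chaperones 0 were called. Against GFP 5 had an unadjusted p under 0.05 with NICD1&2 and 4 with NICD1, where 16.8% and 5.86% of all genes passed. Fewer passed in the other comparisons. Sqstm1 (p62), a component of keratin aggregates, and the ubiquitin gene Ubb stood lowest with NICD2 (-0.17 and 0.02), and the heat shock proteins Hspb1 and Hsph1 highest, by 0.44 and, for Hsph1, 0.88 (SE 0.25, adjusted p = 0.454). With NICD1 against GFP the heat shock genes Hspa1a (1.15, SE 0.38), Hspa1b (1.02, SE 0.25) and Hsph1 (0.97, SE 0.25) met the study's definition, 3 of the 10, beside 1.31% of all genes. Hsph1 met it with NICD2 (1.14% of all genes) and with NICD1&2 (1.06), where Hspb1 (0.96) did too (4.08% of all genes). Hspa1a and Hspa1b are near-identical copies whose probes may share signal.

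Of 22 targets of PPAR-alpha, the nuclear receptor of fatty acid oxidation, limma called Plin5, a lipid droplet protein, with NICD1&2 against GFP (1.47, SE 0.15, adjusted p = 0.0126), as 0.132% of all genes were. That call held under 16 of 21 alternatives. With NICD2 Plin5 was 0.98 higher (SE 0.13, adjusted p = 0.0613), and its r with Krt79 was 0.91. Against GFP the median difference of the list was 0.04 with NICD1, -0.03 with NICD2 and 0.32 with NICD1&2, beside 0.00, 0.02 and 0.12 over all genes. With NICD1&2 all 22 lay above 0, and 5 met the study's definition (Acot1, Cyp4a10, Cyp4a14, Cyp4a31 and Plin5), beside 4.08% of all genes. With NICD1 3 met it, Cyp4a14 (1.87), Cyp4a10 (0.93) and Cyp4a31 (0.91), beside 1.31% of all genes. For NICD2 against NICD1 these Cyp4a genes differed by -1.44, -1.10 and -0.93, while 10 of the 22 lay above 0. With NICD2 against GFP limma called 0, with 2 at an unadjusted p under 0.05 (7.73% of all genes). There 1, Plin5, met that definition (1.14% of all genes).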

How the data were processed

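Gene expression was measured in whole mouse liver on 11 Agilent 1-colour arrays, in groups taken from the sample labels. The authors extracted signals with Feature Extraction software; per the file headers, the deposited processed signal is an intensity after background and spatial detrending, not normalized between arrays. The authors also deposited log2 values normalized in GeneSpring; after alignment of array medians 99.9% of them lay within 0.01 of the values computed here. The methods name a smaller array format and another RNA kit than the files and labels do. Array names refer to an older genome build, mm9, so coordinates were taken only from the RefSeq promoter table (GRCm38.p6), and gene order from RefSeq.

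Spots of a probe were averaged, log2 was taken, and the array's 75th percentile was subtracted. Probes well above background (the software's flag) on at least 2 of 11 arrays, 36055 of 56605, entered 1 fit with a mean per group (lmFit and eBayes, limma 3.58.1, R 4.3.3), with Benjamini-Hochberg adjustment over all probes and calls at an adjusted p under 0.05. The fit was tested on simulated data. A gene stands for its tested probe of highest mean. Probes were named through RefSeq accessions: 32994 carried a gene name. Correlations used 100000 permutations. Summed levels are log2 of the sum over all genes of a list on the array. The number of arrays limits precision, and p-values measure the spread between arrays, which may be technical.

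The genes, lists and alternatives were chosen with earlier results of these data known. Named were all 5 keratins, Notch1, Notch2, Krt7, Krt19, and called genes of each list or otherwise its extremes with NICD2 against GFP. The 10 highest and 5 lowest correlations with Krt79 were named too. Neighbours on the chromosome were added by position, and genes of the lists that met the study's definition against GFP after their values were seen. Alternatives were other scalings and background corrections, other filters, the compared groups alone, array weights, replicate and slide blocks, leaving out each array and the study's definition. No other tested probe existed for these keratins.

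The main fit did not pair samples by replicate number, and whether these numbers mark a shared day or batch is not known.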

Additional observations from a re-analysis of the deposited data

How the results depend on the processing

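Each Krt79 difference kept its direction under all alternatives. With normexp (offset 50) and quantile normalization it was 0.24 for NICD1, 2.28 for NICD2 and 1.90 for NICD1&2 against GFP, and 2.05 for NICD2 and 1.67 for NICD1&2 against NICD1. Within slide 1 it was 0.22 for NICD1 against GFP and 3.50 for NICD2 against NICD1. Within slide 2 it was 0.95, 4.22 and 3.79 for NICD1, NICD2 and NICD1&2 against GFP. Leaving out each array in turn, it ranged from 0.54 to 0.79, from 3.80 to 4.02 and from 3.32 to 3.64 against GFP, from 3.09 to 3.35 and from 2.68 to 3.01 for NICD2 and NICD1&2 against NICD1, and from -0.57 to -0.25 for NICD1&2 against NICD2. The cause of these shifts was not tested. Limma's count of Krt8, Krt18 and Krt23 called stayed at 0 in all 6 comparisons under every alternative fit, and the study's definition gave 1, Krt23 with NICD1&2 against GFP. Directions turned only for differences that were never called: Krt8 with NICD1&2 against GFP was -0.03 with quantile normalization and -0.05 with normexp, and Krt18 with NICD1&2 against NICD1 was -0.13 and -0.10. Leaving out each array, Krt8 ranged from -0.04 to 0.35 for NICD1&2 against GFP and from -0.22 to 0.18 against NICD2. Krt18 ranged from -0.36 to 0.29 against GFP, from -0.21 to 0.43 against NICD1 and from -0.48 to 0.16 against NICD2. Krt23 ranged from -0.01 to 0.29 for NICD2 against NICD1. Pearson's r of Krt8 with Krt18 was 0.57 with normexp, 0.65 without the arrays farthest from the median, and 0.65 to 0.86 without each array. The labels reuse replicate numbers, and residuals of 15 same-number pairs correlated from -0.41 to 0.17, with 6 over 0.1. With so few arrays this cannot tell whether the numbers mark a shared day or batch. All arrays numbered 1 lay on slide 1 and all numbered 3 on slide 2. With the replicate number as a block the Krt79 difference between NICD2 and GFP was 3.89 (SE 0.17) and no call of the keratins changed. The call of Plin5 was lost in that limma fit (adjusted p = 0.0673). Among listed genes, the call of Spp1 with NICD2 was lost in limma without GFP 1 (adjusted p = 0.123), GFP 2 (0.105), NICD1 1 (0.0532), NICD1 3 (0.0657), NICD2 1 (0.05), NICD2 2 (0.144) or NICD2 3 (0.136), with no filter (0.0559) and with the compared groups alone (0.182). With NICD1&2 against GFP, calls were lost without GFP 2 for Spp1 (0.0542) and Plin5 (0.0603), without GFP 1 for Plin5 (0.0505), and without NICD1&2 2 for Spp1 (0.186), Plin5 (0.178) and Pnliprp1 (0.178). Quantile normalization lost that of Pnliprp1 (0.0526), and the compared groups alone lost all 5 calls (0.0855 to 0.317). Signal over background limits Krt20 and the dim keratins, and 2 NICD1&2 arrays limit every comparison of that group.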
